A study of Mus musculus with 4 samples.

Results

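The proteasome is the protease complex that degrades proteins tagged with ubiquitin, and its subunit and assembly genes were followed here in cultured mouse germline stem cells after Nanos2 was forced on. The members were the array probes that the scanner files name Psma, Psmb, Psmd, Psme, Psmf or Psmg with a number, or Psmc1 to Psmc6, without the immunoproteasome genes Psmb8, Psmb9 and Psmb10. This rule took 73 of 41174 different probes, which stand for 45 of the 27370 genes or transcripts named on the array. Of these genes, 44 were measured above background on all 4 arrays. The exception was Psmb11, a catalytic subunit of the thymus, whose 2 probes were not well above background on any array.

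There were 2 arrays of cells given 4-hydroxytamoxifen (labelled Tamoxifen) and 2 arrays of cells given DMSO, the solvent control, each for 48 hours. Cells of both groups came from testis of male mice and carried Roa-CreERT2;CAG-CAT-3FlagNanos2-pA, a knock-in of tamoxifen-dependent Cre recombinase and a CAG-driven construct that makes Flag-tagged NANOS2 after recombination. The cells had grown with the growth factors GDNF, EGF and FGF2 on mitomycin-treated fibroblast feeders. These feeders came from C57Bl6 embryos of day 13.5 and were taken off before RNA extraction. The age of the donor animals and the number of cell lines are not given in the sources used here. No group took the compound without the construct, so what the compound or the recombinase does by itself cannot be told apart from what NANOS2 does.

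The proteasome has a barrel-shaped core, the 20S particle, built from outer alpha rings that gate the entry and inner beta rings that hold the protease sites. A 19S cap binds ubiquitin chains, removes them, and unfolds the substrate with a ring of ATPases. Dedicated chaperones assemble core and cap, and alternative caps, the PA28 and PA200 activators, open the core without ubiquitin. In the testis the core can carry Psma8, a germ cell paralogue of the alpha subunit Psma7, and in mice the PA200 cap (Psme4) takes part in the removal of histones during sperm formation.

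Values are scaled processed signals, Agilent's background-subtracted spot intensities with the 75th percentile of every array brought to a common level, and log2 differences, 4-hydroxytamoxifen minus DMSO, ± the standard error of the limma fit. The brightest probe stood for a gene, and a call is a limma adjusted p under 0.05 over all 17537 features measured. Signals of different genes come from different probes and are not compared with each other. Nanos2 itself had 927 and 1095 in the 4-hydroxytamoxifen arrays, against 346 and 342 in the DMSO arrays, a log2 difference of 1.55 ± 0.10 (limma adjusted p = 0.000861). Between 62.1% and 65.9% of spots were well above background, and no spot was saturated (0 on each array). In such bulk RNA, fewer cells of a type cannot be told apart from less RNA per cell.

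Proteasome transcripts were on balance modestly lower in the 4-hydroxytamoxifen arrays. Of the 44 measured genes, 23 were called lower and 3 higher, and 18 did not pass. Over all features, 29.3% were called lower, 40.3% higher and 69.5% either way. The median difference of the proteasome genes was -0.23, against 0.11 over all features, and 39 of the 44 lay below that general median. Both 4-hydroxytamoxifen arrays lay below both DMSO arrays for 33 genes (37.6% of all features) and above them for 7 (48.9% of all features). Most differences were small: 9 genes were called lower by at least 1.5-fold (17.6% of all features) and 2 by at least 2-fold (8.19% of all features), while 1 was called higher by at least 1.5-fold (28.0% of all features). The share of such larger lower calls among proteasome genes was thus near or below the background.

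**Figure D1:**
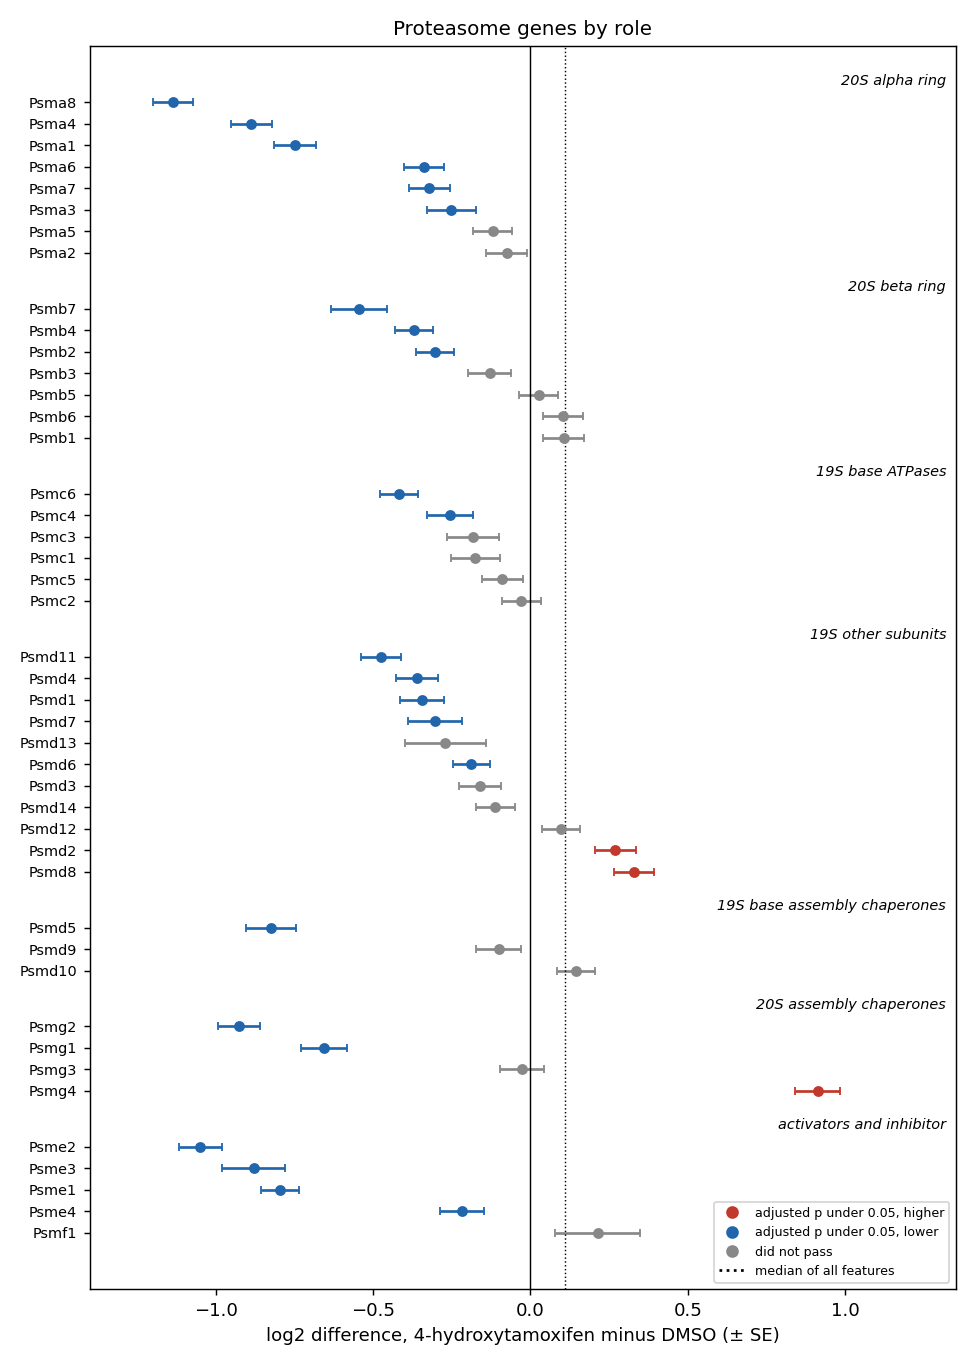
The log2 difference, 4-hydroxytamoxifen minus DMSO, of each of the 44 measured genes is plotted by role, with the standard error as bars and 2 arrays per group. Colours mark genes called lower, called higher or not passing, and the dotted line is the median of all features at 0.11. Points left of 0 prevail, from Psma8 at -1.14, while Psmg4 lies farthest right at 0.91.

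The counts depended on scaling and on single arrays. Scaling on the median of each array gave 35 lower and 1 higher, and scaling on spike-in probes 15 lower and 1 higher, while the general median moved to -0.07 and -0.03. The gap between the proteasome median and the general median, -0.34, cannot move under either, since both scalings shift all genes alike. It was -0.27 with quantile normalization and -0.28 without DMSO replicate 1, the values nearest 0 among the alternatives. Over all features the share of calls in the higher direction was 57.9%, and 46.2% with median scaling. Without DMSO replicate 1 or without 4-hydroxytamoxifen replicate 2 there were 15 lower calls, and without DMSO replicate 2 or 4-hydroxytamoxifen replicate 1 there was 1 higher call. Of the 26 calls, 14 (13 lower, 1 higher) passed in each of the 14 alternatives run on genes, and 12 were lost in at least 1.

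Markers of cell types moved in the same arrays. The spermatogonial markers measured, 8 in all, were present in both groups, and 6 were called lower (29.3% of all features) and 0 higher (40.3% of all features). Their summed signal was 75102 and 79514 in the 4-hydroxytamoxifen arrays, against 125818 and 123847 in the DMSO arrays. Of 14 embryonic fibroblast markers 13 were called higher and 0 lower, with a sum of 290280 and 277409 in the 4-hydroxytamoxifen arrays, against 155714 and 176975 in the DMSO arrays. The one that did not pass was Col1a1. Each of these 14, the collagen genes Col1a1, Col1a2 and Col3a1 among them, was well above background on all 4 arrays. Of 10 macrophage and lymphoid markers 6 were called higher and 0 lower, with sums of 25917 and 26529.7 in the 4-hydroxytamoxifen arrays, against 11868 and 13189 in the DMSO arrays. Their part in the proteasome and immunoproteasome differences was not tested.

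The alpha ring was lower. Of its 8 genes 6 were called lower (29.3% of all features) and 0 higher (40.3% of all features), with a median of -0.33. Psma8, the germ cell subunit, had 1977 and 1934 in the 4-hydroxytamoxifen arrays, against 4395 and 4202 in the DMSO arrays. It was 2.20-fold lower, a difference of -1.14 ± 0.06 (limma adjusted p = 0.000697), the largest among the 44 genes. Its paralogue Psma7, which occupies the same place in the core of other cells, had 30592 and 29264 in the 4-hydroxytamoxifen arrays, against 37960.3 and 36796 in the DMSO arrays. The Psma7 difference was -0.32 ± 0.07 (limma adjusted p = 0.0134), and a second Psma7 probe gave -0.49. The Psma7 call was lost in 4 of 14 alternatives, namely with spike-in scaling (adjusted p = 0.0603), with dim probes left in (0.0571), without 4-hydroxytamoxifen replicate 2 (0.0677) and without DMSO replicate 1 (0.0607). Both paralogues were thus lower on both arrays, and the difference between their changes was not tested.

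Psma4, a structural alpha subunit, had 3697 and 3605 in the 4-hydroxytamoxifen arrays, against 6927 and 6578 in the DMSO arrays, a difference of -0.89 ± 0.07 (limma adjusted p = 0.00104). It was measured by a pair of probes that share no base of the transcript, and the other one gave -0.98. Psma1 had 10361 and 10018 in the 4-hydroxytamoxifen arrays, against 17592 and 16652 in the DMSO arrays, and differed by -0.75 ± 0.07 (adjusted p = 0.00147). For both genes the arrays of the groups lay far apart next to the gap within a group. Psma6 (-0.34) and Psma3 (-0.25) were also called lower. The Psma6 call passed in 11 of 14 alternatives, and was lost without DMSO replicate 1 (adjusted p = 0.0502), without 4-hydroxytamoxifen replicate 1 (0.0555) and with spike-in scaling (0.0509). The Psma3 call passed in 7 of 14 and, of the 4 fits that left out an array, in the one without DMSO replicate 2 alone (adjusted p elsewhere up to 0.180). In a fit of all kept probes the dimmer Psma3 probe (-0.43) was called lower and the brightest was not (limma adjusted p = 0.0151 and 0.0524). Psma5 (-0.12) and Psma2 (-0.08) did not pass, although their arrays did not overlap.

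The probes are 60-base sequences, given as in the scanner files with mm9 positions. Probes of Psma4, Psmb7, Psme2 and Psmg1 are shown as examples. Each spans more genome than its own length and so crosses an exon junction, and the calls of these genes passed in every alternative run. Other genes, such as Psmb4 and Psmc6, also met both conditions and are not shown. The first Psma4 probe and those of Psmb7 and Psmg1 carry the gene values given here. The second Psma4 probe and the Psme2 probe are the dimmer ones of their genes (-0.98 and -1.16). The Psma4 probes start at positions 299 and 409 of its transcript.
Psma4, chr9:54802491-54802690, plus strand: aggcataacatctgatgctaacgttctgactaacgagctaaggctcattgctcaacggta
Psma4, chr9:54802741-54804087, plus strand: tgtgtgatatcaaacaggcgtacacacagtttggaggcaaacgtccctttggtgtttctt
Psmb7, chr2:38468966-38489385, minus strand: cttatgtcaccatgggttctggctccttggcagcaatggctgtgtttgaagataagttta
Psme2, chr14:56206927-56207124, minus strand: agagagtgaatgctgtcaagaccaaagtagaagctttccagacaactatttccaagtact
Psmg1, chr16:96201661-96203710, minus strand: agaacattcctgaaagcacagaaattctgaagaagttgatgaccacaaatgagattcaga

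In the beta ring, 1 of the 3 catalytic subunits was called lower, and differences between subunits were not tested. Of 7 measured genes 3 were called lower (29.3% of all features) and 0 higher (40.3% of all features), with a median of -0.13. Psmb7, the trypsin-like site, had 4239 and 4837 in the 4-hydroxytamoxifen arrays, against 6658 and 6542 in the DMSO arrays, a difference of -0.54 ± 0.09 (limma adjusted p = 0.00716). Psmb5, the chymotrypsin-like site, had 18365 and 17707 in the 4-hydroxytamoxifen arrays, against 17552 and 17856 in the DMSO arrays. Its difference was 0.03 with a 95% interval from -0.15 to 0.20, and the groups overlapped. Psmb6, the caspase-like site, had 46393 and 45074 in the 4-hydroxytamoxifen arrays, against 43319.5 and 41775 in the DMSO arrays. Its difference of 0.10 (95% interval from -0.07 to 0.28) did not pass. The signs of Psmb5 and Psmb6 turned with median and with spike-in scaling, where neither passed.

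Among the structural beta subunits, Psmb4 had 34717 and 35418 in the 4-hydroxytamoxifen arrays, against 44990.4 and 45593 in the DMSO arrays. It differed by -0.37 ± 0.06 (limma adjusted p = 0.00699). Psmb2 had 1418 and 1392 in the 4-hydroxytamoxifen arrays, against 1758 and 1708 in the DMSO arrays, and differed by -0.30 ± 0.06 (adjusted p = 0.0135). The Psmb4 call passed in all 14 alternatives. The Psmb2 call was lost in 5 of them (adjusted p up to 0.0719), among these the fits without DMSO replicate 1 (0.0653), 4-hydroxytamoxifen replicate 1 (0.0564) and 4-hydroxytamoxifen replicate 2 (0.0668). Psmb3 (-0.13) and Psmb1 (0.11) did not pass.

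The ATPases of the cap base, which unfold and thread the substrate, were all below 0 (44.2% of all features) but mostly did not pass the test. Of the 6 genes, 2 were called lower and 0 higher, with a median of -0.18. That share of lower calls, 33.3%, was near the 29.3% of all features. Psmc6 had 20356 and 19911 in the 4-hydroxytamoxifen arrays, against 26828 and 26999 in the DMSO arrays, a difference of -0.42 ± 0.06 (limma adjusted p = 0.00482). A second Psmc6 probe, made to an Ensembl transcript, gave -0.02 and did not pass. Psmc4 had 8942 and 9559 in the 4-hydroxytamoxifen arrays, against 10725 and 11366 in the DMSO arrays. It differed by -0.26 ± 0.07 (adjusted p = 0.0375). The Psmc4 call passed in 7 of 14 alternatives and was lost on leaving out any 1 of the 4 arrays (adjusted p up to 0.147), with differences from -0.30 to -0.21 there. Both Psmc4 probes were called lower in the fit of all kept probes, the dimmer one at -0.35 (limma adjusted p = 0.0118).

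Psmc3 had 6431 and 7039 in the 4-hydroxytamoxifen arrays, against 7893 and 7374 in the DMSO arrays. It was at -0.18 and did not pass (limma adjusted p = 0.117), although its arrays did not overlap. Psmc1 (-0.17), Psmc5 (-0.09) and Psmc2 (-0.03) did not pass either, and the Psmc2 sign turned in 1 of 14 alternatives. However, a dimmer Psmc5 probe was called lower at -0.32 in the fit of all kept probes (limma adjusted p = 0.0216).

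The other subunits of the cap went both ways. Of 11 genes 5 were called lower (29.3% of all features) and 2 higher (40.3% of all features), with a median of -0.19. Psmd11, a lid subunit that clamps the lid to the core, had 20679.5 and 19968 in the 4-hydroxytamoxifen arrays, against 27750.5 and 28696 in the DMSO arrays. It differed by -0.47 ± 0.06 (limma adjusted p = 0.00403). Psmd4, a ubiquitin receptor, had 11689 and 12329 in the 4-hydroxytamoxifen arrays, against 15659.6 and 15181 in the DMSO arrays, a difference of -0.36 ± 0.07 (adjusted p = 0.0102). Psmd1, a large scaffold of the base, had 4692 and 4376 in the 4-hydroxytamoxifen arrays, against 5681 and 5832 in the DMSO arrays, and differed by -0.35 ± 0.07 (adjusted p = 0.0134).

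The Psmd4 call was lost without 4-hydroxytamoxifen replicate 1 (limma adjusted p = 0.0549), and the Psmd1 call without 4-hydroxytamoxifen replicate 2 (0.0637) or DMSO replicate 2 (0.0522) or with no filter on dim probes (0.0552). Psmd7 (-0.30) and Psmd6 (-0.19) were the other lower calls of the cap. The Psmd7 call passed in 8 of 14 alternatives and in 1 of the 4 fits that left out an array, the one without 4-hydroxytamoxifen replicate 1 (adjusted p elsewhere up to 0.123). The Psmd6 call passed in 4 of 14 alternatives (adjusted p up to 0.193, with spike-in scaling). It was lost in each fit that left out an array, with differences from -0.19 to -0.18 there. All 3 Psmd7 probes were called lower in the fit of all kept probes. The dimmer ones were at -0.57 and -0.64 (limma adjusted p = 0.00318 and 0.00226). Psmd14, the deubiquitinase that strips the chain from the substrate and pairs with Psmd7, had 13227 and 13213 in the 4-hydroxytamoxifen arrays, against 14478 and 14080.2 in the DMSO arrays. Its difference of -0.11 did not pass (limma adjusted p = 0.172; 95% interval from -0.28 to 0.06). Psmd13 (-0.27), Psmd3 (-0.16) and Psmd12 (0.10) did not pass. Psmd12 had 3 probes, and a dimmer one was called lower at -0.52 in the fit of all kept probes (limma adjusted p = 0.00428). The remaining Psmd12 probe gave -0.15 and did not pass.

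The cap subunits that were higher were Psmd8 and Psmd2. Psmd8, a lid subunit, had 5118 and 4940.2 in the 4-hydroxytamoxifen arrays, against 4059 and 3953 in the DMSO arrays, a difference of 0.33 ± 0.06 (limma adjusted p = 0.0115). Psmd2, the base scaffold where ubiquitin shuttle proteins dock, had 32839 and 34478 in the 4-hydroxytamoxifen arrays, against 27706 and 28102 in the DMSO arrays, a difference of 0.27 ± 0.06 (adjusted p = 0.0216). A second Psmd2 probe gave -0.13 and did not pass. The call of Psmd2 passed in 5 of 14 alternatives and in 0 of the 4 fits that left out an array (adjusted p over all alternatives up to 0.647). That of Psmd8 was lost in 5 of 14, namely with spike-in scaling (adjusted p = 0.492), with median scaling (0.116), with no filter (0.0516), without 4-hydroxytamoxifen replicate 1 (0.0612) and without DMSO replicate 2 (0.0516).

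Of the 4 assembly chaperones of the core, 2 were called lower (29.3% of all features) and 1 higher (40.3% of all features). PSMG1 and PSMG2 form a dimer that gathers the alpha ring, and both genes were lower. Psmg2 had 4242 and 4482 in the 4-hydroxytamoxifen arrays, against 8366 and 8196 in the DMSO arrays, a difference of -0.93 ± 0.07 (limma adjusted p = 0.000973), and its second probe gave -0.97. Psmg1 had 3106 and 3143 in the 4-hydroxytamoxifen arrays, against 5124 and 4727 in the DMSO arrays, a difference of -0.66 ± 0.07 (adjusted p = 0.00232).

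PSMG3 and PSMG4 form the other dimer of this pathway. Psmg4 had 5619 and 5722 in the 4-hydroxytamoxifen arrays, against 3137 and 2893 in the DMSO arrays. It was 1.88-fold higher, a difference of 0.91 ± 0.07 (limma adjusted p = 0.00117), and the call passed in all 14 alternatives, with differences between 0.73 and 0.97. Psmg3 had 4165 and 4079 in the 4-hydroxytamoxifen arrays, against 4053 and 4345 in the DMSO arrays. Its difference was -0.03 (95% interval from -0.22 to 0.17) and the groups overlapped. Each of Psmg1, Psmg3 and Psmg4 rested on 1 probe.

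Of the 3 chaperones of the cap base, 1 was called lower (29.3% of all features) and 0 higher (40.3% of all features). Psmd5 had 7013 and 7337 in the 4-hydroxytamoxifen arrays, against 13332 and 12089.6 in the DMSO arrays, a difference of -0.82 ± 0.08 (limma adjusted p = 0.00174). Psmd10, also known as the oncoprotein gankyrin, had 1449.9 and 1447 in the 4-hydroxytamoxifen arrays, against 1331 and 1291 in the DMSO arrays, and did not pass (0.14, adjusted p = 0.100). Its sign turned with median scaling. Psmd9 had 1218 and 1250.1 in the 4-hydroxytamoxifen arrays, against 1373 and 1276 in the DMSO arrays, and did not pass (-0.10, adjusted p = 0.264). A second, dimmer Psmd9 probe was called higher at 0.70 (adjusted p = 0.00735 in a fit of all probes), and the mean of both passed as higher at 0.30 (adjusted p = 0.0224), so no direction is given for Psmd9.

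The activator genes were the role with the lowest median, -0.80. Of 5 genes, 4 were called lower (29.3% of all features) and 0 higher (40.3% of all features). PSME1 and PSME2 together form the PA28 cap that interferon gamma induces. Psme2 had 24423 and 25399 in the 4-hydroxytamoxifen arrays, against 52984 and 50058 in the DMSO arrays. It was 2.07-fold lower, a difference of -1.05 ± 0.07 (limma adjusted p = 0.000837), and a second probe gave -1.16. Psme1 had 12692 and 12834 in the 4-hydroxytamoxifen arrays, against 22322 and 21987 in the DMSO arrays, a difference of -0.80 ± 0.06 (adjusted p = 0.00105). The probes of these partner genes lie 6.1 kb apart on chromosome 14 of mm9, on opposite strands.

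Psme3, the nuclear PA28 subunit, had 776 and 899 in the 4-hydroxytamoxifen arrays, against 1584 and 1488 in the DMSO arrays, a difference of -0.88 ± 0.10 (limma adjusted p = 0.00256). Psme4, the PA200 activator, had 17066 and 15890.4 in the 4-hydroxytamoxifen arrays, against 19308 and 18980.1 in the DMSO arrays. Its difference of -0.22 ± 0.07 lay at the threshold (adjusted p = 0.0498) and passed in 4 of 14 alternatives, with adjusted p from 0.0075 to 0.179. Psmf1, an inhibitor of the core in vitro, was at 0.21 with overlapping groups and did not pass, while its 3 probes ranged from 0.21 to 0.30, and 1 of them was called higher in the fit of all probes (adjusted p = 0.0197).

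**Figure D2:**
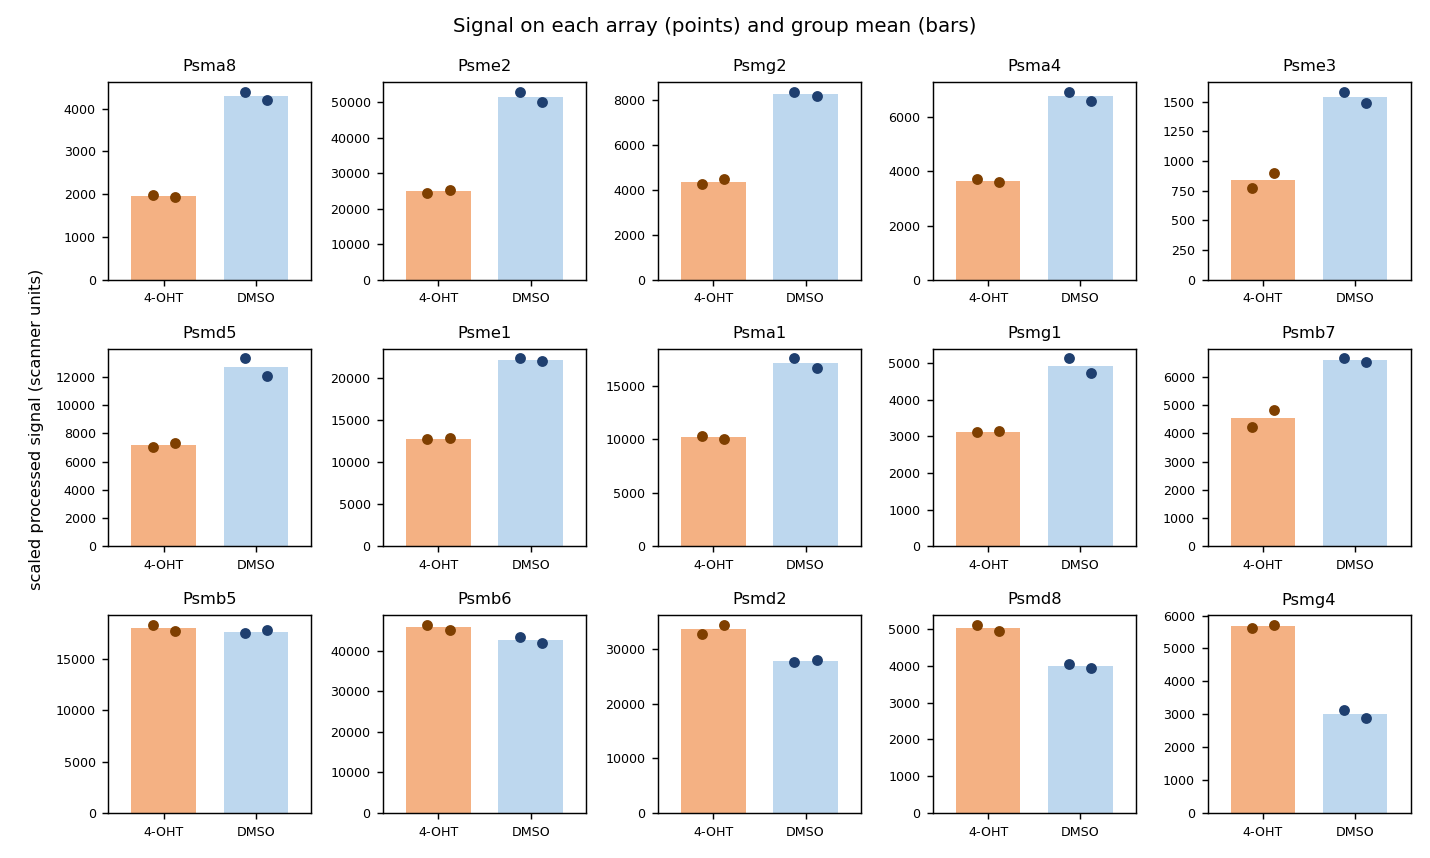
Scaled processed signal on each array (points) and the mean of each group (bars, from 0) are plotted for 15 genes, with 4-hydroxytamoxifen (4-OHT) left of DMSO and 2 arrays per group. The points of the groups are well apart for Psma8, Psme2, Psmg2 and Psma4, overlap for Psmb5, and lie higher in 4-hydroxytamoxifen for Psmd2, Psmd8 and Psmg4.

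Further probes bear on how far a gene's value can be trusted. Of the 73 probes, 66 were kept as well above background on at least 2 arrays, and in a fit of all 26392 kept probes 31 of them were called lower and 5 higher. Over all kept probes 31.1% were called lower and 36.2% higher. There were 18 genes with several kept probes, and 0 of them had probes called in opposite directions. For Psmd14, Psmg2, Psmb3, Psmf1, Psmc4 and Psma4 the probes lay within 0.10 of each other. The widest spreads were those of Psmd9 (0.80), Psmd12 (0.61, from -0.52 to 0.10), Psmd2 (0.40) and Psmc6 (0.39).

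The 7 probes not kept were those of Psmb11 and 1 each of Psma2, Psma3, Psmd11, Psmd14 and Psme4. These last 5 were made to Ensembl transcripts or GenBank cDNAs rather than RefSeq messages, and their genes kept other probes. The Psmd11 one runs against the strand of its gene.

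**Figure D3:**
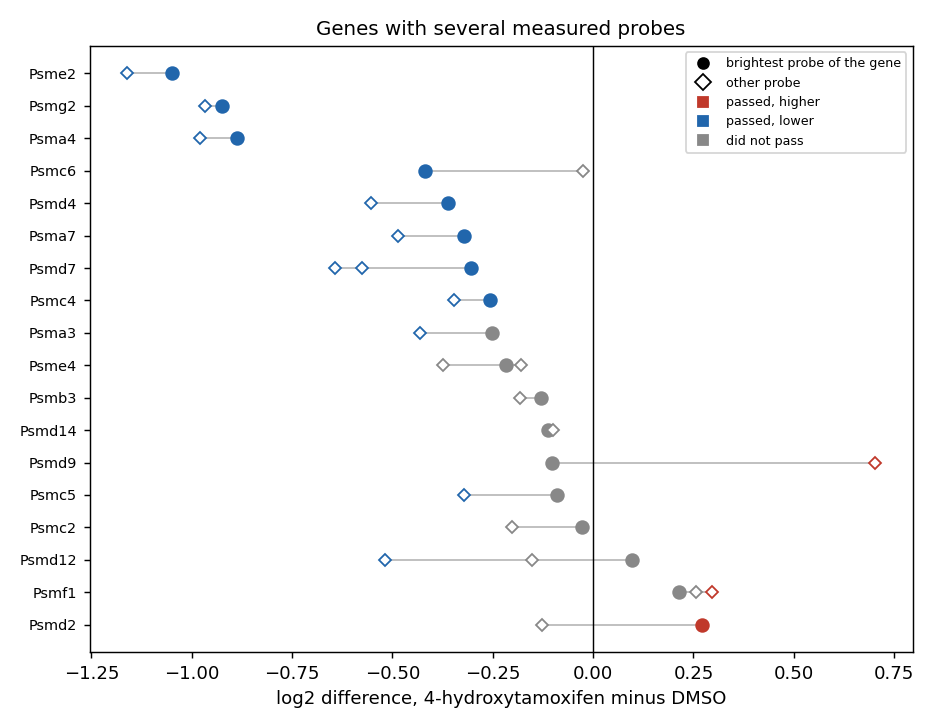
The log2 difference, 4-hydroxytamoxifen minus DMSO, is plotted for every kept probe of the 18 genes with several, filled circles for the brightest probe and open diamonds for the others, coloured by the call in the fit of all 26392 probes. The brightest probes of Psma3 and Psme4, called in the gene fit, do not pass in this one. Psme2, Psmg2 and Psma4 have all probes at the left, while Psmd9 has probes on both sides of 0.

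The immunoproteasome genes stood outside the rule but share the beta ring, and they moved in opposite directions. Each replaces a catalytic subunit after interferon: Psmb9 takes the place of Psmb6, Psmb10 that of Psmb7, and Psmb8 that of Psmb5. Psmb8 had 3012 and 3429 in the 4-hydroxytamoxifen arrays, against 893 and 747 in the DMSO arrays. It was 3.93-fold higher, a difference of 1.98 ± 0.13 (limma adjusted p = 0.000806), and a second probe gave 1.94. Psmb9 had 933 and 1015 in the 4-hydroxytamoxifen arrays, against 2074 and 1807 in the DMSO arrays, a difference of -0.99 ± 0.10 (adjusted p = 0.00192). Psmb10 had 10079.6 and 11225 in the 4-hydroxytamoxifen arrays, against 15264 and 15086 in the DMSO arrays, a difference of -0.51 ± 0.08 (adjusted p = 0.00623). The probes of Psmb8 and Psmb9 lie 18.6 kb apart on chromosome 17 of mm9, and the genes are read from opposite strands.

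**Figure D4:**
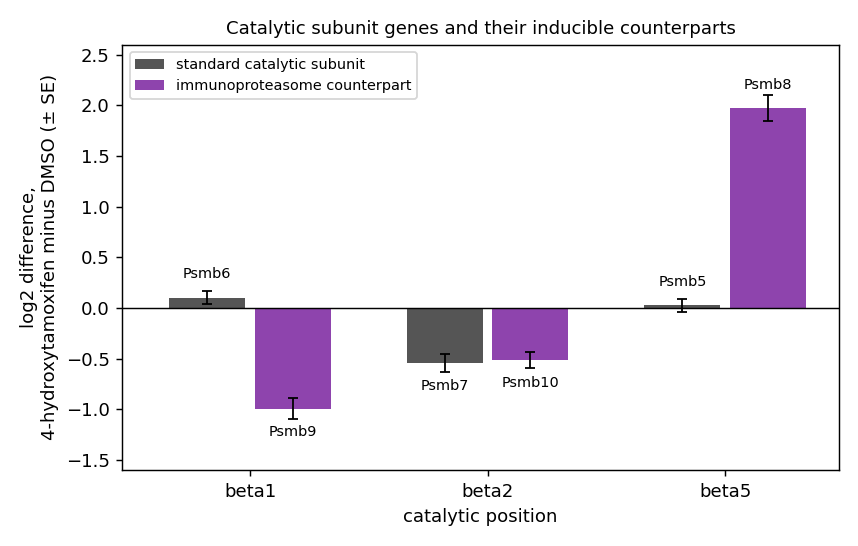
Bars give the log2 difference, 4-hydroxytamoxifen minus DMSO, with its standard error (2 arrays per group), of each standard catalytic subunit (grey) beside its immunoproteasome counterpart (purple). Psmb8 stands at 1.98 beside Psmb5 at 0.03, Psmb9 at -0.99 beside Psmb6 at 0.10, and Psmb10 at -0.51 beside Psmb7 at -0.54.

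A list of 34 genes of the ubiquitin and proteasome pathway outside the rule included Psmb8, Psmb9 and Psmb10. Of the 34, 33 were measured, and 10 were called lower and 6 higher. Psmb8 was among these higher calls, and Psmb9 and Psmb10 were among the lower ones. The share of lower calls was 30.3%, against 29.3% of all features, and that of higher calls 18.2%, against 40.3%. Their median was -0.04, against 0.11 over all features, and 23 of the 33 lay below that general median. Pomp, the maturation factor of the core, had 39489 and 38988 in the 4-hydroxytamoxifen arrays, against 50543 and 52310.5 in the DMSO arrays, a difference of -0.39 ± 0.06 (limma adjusted p = 0.00643). Uchl5 and Usp14, deubiquitinases that bind the cap, were chosen after their values were seen. Uchl5 had 4123 and 3851 in the 4-hydroxytamoxifen arrays, against 8091 and 7869 in the DMSO arrays (adjusted p = 0.000929), and Usp14 differed by -0.84 (adjusted p = 0.00107).

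The cap subunits Adrm1 (0.02) and Sem1 (0.03) did not pass, and their signs turned with median and spike-in scaling. Nfe2l1, the transcription factor that raises proteasome genes when the proteasome is inhibited, had 20229 and 19026 in the 4-hydroxytamoxifen arrays, against 17499 and 18184 in the DMSO arrays, and did not pass (0.14, adjusted p = 0.148). Its relative Nfe2l2 narrowly failed (0.20, limma adjusted p = 0.0514) and passed as higher with the mean of its 3 probes (0.55, adjusted p = 0.00439). Nfe2l2 also passed with normexp background correction (0.029), quantile normalization (0.041), the deposited table (0.048) and a filter on all 4 arrays (0.042). It was at 0.02 with median scaling and 0.06 with spike-in scaling, and passed with neither. Nor did it pass with a replicate block (0.123) or no filter on dim probes (0.152). Ddi2 (0.33) and Ngly1 (0.90), which process the NFE2L1 protein, were called higher, chosen after their values were seen. Whether these calls hold with median or spike-in scaling is not given here.

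Promoters were read from RefSeq (GRCm38.p6, 250 bases before to 50 after a start), where 37 of the 45 genes had at least 1 entry. The antioxidant response element TGACNNNGC, to which NFE2L1 and NFE2L2 bind, was found on either strand in 6 of these 37 genes (16.2%) and in 14.0% of 27025 genes with a promoter. These were Psmb5, Psmb6, Psmc6, Psmd9, Psmd12 and Psme4, of which Psmc6 and Psme4 were called lower. The interferon response core, GAAA followed by any 2 bases and another GAAA, was found in 5 of 37 genes (13.5%) and in 3.99% of all. These were Psmb3, Psmd4, Psmd9, Psme1 and Psmg4, of which Psmd4 and Psme1 were called lower and Psmg4 higher. The GC box GGGCGG occurred in 59.5% of the members and 38.2% of all, and CCAAT in 35.1% and 41.1%. Each motif was searched alone, whether or not it overlapped another. Matches describe letters only and name no bound factor.

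The promoters of Psme1, Psmg4 and Psmb5 are printed to 30 bases past the start, because the first pair holds the interferon core beside opposite changes and Psmb5 holds the antioxidant element beside a difference near 0. Capitals mark the motif, which lies 9 bases past the start in Psme1, 15 bases past it in Psmg4 and at -47 in Psmb5. The sequences are RefSeq's on GRCm38.p6 and run in the direction of transcription.
Psme1, chr14:55578244-55578523, plus strand: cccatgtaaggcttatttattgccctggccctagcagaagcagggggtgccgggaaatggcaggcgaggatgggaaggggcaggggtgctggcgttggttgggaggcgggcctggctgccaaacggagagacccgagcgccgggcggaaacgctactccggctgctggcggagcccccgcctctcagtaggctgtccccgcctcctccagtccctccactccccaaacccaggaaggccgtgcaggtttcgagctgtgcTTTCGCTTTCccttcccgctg
Psmg4, chr13:34162714-34162993, plus strand: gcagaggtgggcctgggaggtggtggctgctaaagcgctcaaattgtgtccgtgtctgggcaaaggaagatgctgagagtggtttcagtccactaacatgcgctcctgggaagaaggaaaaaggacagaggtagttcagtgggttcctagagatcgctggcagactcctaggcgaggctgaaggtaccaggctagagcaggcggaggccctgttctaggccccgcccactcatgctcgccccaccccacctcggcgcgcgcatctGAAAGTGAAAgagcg
Psmb5, chr14:54617966-54618245, minus strand: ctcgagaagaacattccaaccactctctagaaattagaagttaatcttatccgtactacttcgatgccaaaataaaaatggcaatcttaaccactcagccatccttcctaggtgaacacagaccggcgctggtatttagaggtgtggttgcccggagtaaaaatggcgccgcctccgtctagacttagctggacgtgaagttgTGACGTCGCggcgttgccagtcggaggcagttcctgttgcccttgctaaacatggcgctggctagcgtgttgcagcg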

How the data were processed

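Total RNA was labelled with Cy3 from 0.20 µg and hybridised to 4 Agilent 1-colour arrays of design 014868, all on 1 slide read in 1 scan. The deposited intensity values came from Feature Extraction 10.7.3.1 per the file headers, with background subtracted and detrended within an array, whereas the submitters' processing notes name version 9.5. The deposited value table held log2 values that differed from those signals by a single constant for each array (0.290 to 0.362; column medians 6.16 to 6.35), so its scale and direction were known, and it served as an alternative.

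Control spots and 60 to 71 outlier spots per array were left out and repeated spots averaged. From each log2 signal the 75th percentile of its array was taken off, and values were kept for probes well above background on at least 2 arrays (26393 probes, 26392 of them with a value on all 4). The brightest probe stood for a gene. Names were updated through RefSeq tables of GRCm38.p6 (33636 of 41174 probes matched). Printed signals are these values returned to the linear scale at the mean of the 4 percentiles.

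The linear model (limma 3.58.1, R 4.3.3, eBayes) held the treatment alone, with Benjamini-Hochberg adjustment over 17537 features. It was also run on simulated data. These were drawn independently for each gene with the fitted spread, so that run cannot show whether the calls made here hold. The smallest two-sided p of an exact permutation test on 2 and 2 arrays is 0.333. No label ties the replicates to separate cultures. The p-values therefore cover the spread of these arrays alone, which may be technical. For probes printed several times, the gap between the arrays of a group was 3.68 (4-hydroxytamoxifen) and 3.32 (DMSO) times spot noise. The arrays were counted as separate samples, as labelled. This does not show that their RNA was prepared separately. The number of arrays limits the precision.

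The members and lists were chosen with earlier results of these data known. Values per array are given for the 3 genes of each role with the largest difference, the catalytic subunits and the genes called higher. The same holds for Psma7, Psma8, Psme4 and Psmd14. Nanos2, Psmb8, Psmb9, Psmb10, Pomp, Adrm1, Sem1, Nfe2l1 and Nfe2l2 were also in the preset list of genes to give values for. Other genes named were chosen after their values were seen. The markers Zbtb16 and Insl3 and the related gene Paaf1 were not analysed here, and the markers Amh, Gata4 and Acrv1 were not well above background on 2 arrays. Sertoli and Leydig markers (2 of 5 measured higher, 2 lower) and spermatocyte and spermatid markers (1 of 7 higher, 4 lower) were also counted. Over all features 40.3% were called higher and 29.3% lower. Alternatives covered background correction, scaling, filters, probe choice, the deposited table, a replicate block, each array left out and an intensity trend of the variance.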

Additional observations from a re-analysis of the deposited data

How the results depend on the processing

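The 23 lower calls, 3 higher calls and median of -0.23 among proteasome genes were compared over 15 alternatives. Lower calls numbered 35 with median scaling, 15 with spike-in scaling and 15 with no filter on dim probes, and 15 to 18 when 1 array was left out. Higher calls numbered 1 with median scaling, 1 with spike-in scaling, 1 with no filter and 5 with every probe counted, and 1 to 2 when 1 array was left out. The median was -0.42 with median scaling and -0.38 with spike-in scaling, and -0.25 to -0.18 when 1 array was left out. Replicate numbers were not taken as pairs, since deviations of same-numbered arrays correlated at -0.05 over features. A replicate block gave 18 lower and 2 higher calls with the same median of -0.23. Besides Psmd9, signs turned, with no call under the alternative, for Psmb5 (-0.16), Psmb6 (-0.077), Psmd10 (-0.038), Adrm1 (-0.16), Sem1 (-0.15) and Nfe2l1 (-0.044) with median scaling. With spike-in scaling they turned for Psmb5 (-0.12), Psmb6 (-0.039), Adrm1 (-0.13), Sem1 (-0.11) and Nfe2l1 (-0.0065). Adrm1 turned with normexp correction (-0.0071) and with the mean of probes (-0.14), and Sem1 without 4-hydroxytamoxifen replicate 1, where leaving out 1 array gave -0.0014 to 0.066. Psmd9 turned with the mean of probes (0.30), which passed. Among members not called, Psmb1 (-0.075 and -0.038) and Psmd12 (-0.085 and -0.047) turned with median and spike-in scaling, Psmd12 also with the mean of probes (-0.19), Psmc2 with quantile normalization (0.0075) and Psmg3 without DMSO replicate 2 (0.024). Fewer arrays or other scaling change these values by construction; for the filter the cause was not tested. Signal over background limited only Psmb11 among the genes.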
